A study of Mus musculus with 7 samples.

Results

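The respiratory chain subunits described here are the nuclear genes whose names mark them as parts of the oxidative phosphorylation machinery of the inner mitochondrial membrane: Nduf genes of the A, B, C, S and V groups, Sdha to Sdhd, Uqcr genes, Cyc1, Cox4 to Cox8 genes whose number is followed by a, b or c, and Atp5 genes. Their names alone chose them. 101 of the 55401 rows of the count table matched, 13 of these were names with -ps and were left out, and 88 rows remained. These hold 87 symbols, because Atp5o is listed under a pair of identifiers. 82 of the 88 rows were among the 16429 genes with more than 1 CPM (counts scaled to a common library size) in at least 2 samples, and were tested. The 6 others were Cox7b2 and Cox8c, which are testis isoforms and had 0 counts in all 7 samples, the second Atp5o row, also at 0, and the gene copies Cox6c2, Ndufa11b and Ndufs6b, which reached at most 0.548 CPM in any sample. Of the tested rows, 75 are ubiquitous subunits, with 35 in complex I, 4 in complex II, 9 in complex III, 10 in complex IV and 17 in complex V. The other tested rows were the muscle isoforms Cox6a2, Cox7a1 and Cox8b, the testis isoform Cox6b2, the Ndufa4 paralog Ndufa4l2, the supercomplex factor Cox7a2l, and the gene copy Ndufb4c.

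Complex I (NADH dehydrogenase) and complex II (succinate dehydrogenase) pass electrons to ubiquinone, complex III (the cytochrome bc1 complex) passes them on to cytochrome c, and complex IV (cytochrome c oxidase) hands them to oxygen. Complexes I, III and IV pump protons, and complex V (ATP synthase) uses the gradient to make ATP. A small set of core subunits is encoded by mitochondrial DNA, all subunits of complex II and the great majority of the others come from nuclear genes, and articular chondrocytes, which live in avascular tissue, are known for relying largely on glycolysis.

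RNA-Seq was performed on knee tissue of male C57BL/6J mice, either WT or Trpc1-/-, the latter carrying the allele Trpc1tm1Lbi in every cell, in which loss of an exon introduces an early stop codon. All mice underwent destabilization of the medial meniscus (DMM), an operation that brings on osteoarthritis, in the right knee at 10 weeks of age, and tissue was taken 2 weeks later. No unoperated sample was among those analysed, so what is compared is genotype in operated joints. Each sample pooled tissue from 2 to 3 mice, and by the labels there were 4 WT and 3 Trpc1-/- samples, whereas the methods of the study give 3 and 4. The labels were used here. They name cartilage of the femoral head and tibial plateau, and the methods add subchondral bone.

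Total counts per sample lay between 52142451 and 118254070, and 3 counts corresponded to between 0.0244 and 0.0631 CPM. This floor reflects the error of counting alone. Trpc1 had 4.82, 4.54, 4.76 and 4.32 CPM in WT replicates 1 to 4 and 3.34, 3.78 and 3.03 CPM in Trpc1-/- replicates 1 to 3. The groups did not overlap (logFC -0.44 ± 0.13 SE), but with edgeR's quasi-likelihood test the adjusted p was 0.407, and counts over the whole gene do not separate the deleted exon from the rest. Chondrocyte markers were detected in every sample (summed 3410 to 6457 CPM for 12 genes), as were those of osteoblasts and osteocytes (6097 to 13846 CPM for 10 genes). The red cell lineage was more abundant in reads than either, at 19382 to 36130 CPM in WT and 41758 to 57028 CPM in Trpc1-/- samples for 15 genes led by Hbb-bs, Hba-a1 and Hba-a2. WT replicate 1 stood apart from the other 6 samples, with the fewest counts, the highest skeletal muscle sum (1514 CPM against 74.4 to 1242 CPM) and the lowest neutrophil lineage sum (5710 CPM against 13425 to 18104 CPM), and values that rest on it are given again without it. In such tissue, fewer cells of a type and less RNA per cell cannot be told apart.

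The question addressed was whether loss of Trpc1 was accompanied by a different level of respiratory chain transcripts in the operated joint. Summed over the 75 ubiquitous subunits, the transcripts amounted to 2601, 3650, 3959 and 3723 CPM in WT replicates 1 to 4 and 4191, 3758 and 4161 CPM in Trpc1-/- replicates 1 to 3. WT replicate 1 was the lowest, and Trpc1-/- replicate 2 lay between the WT samples. The Trpc1-/- mean of 4037 ± 242 CPM (SD, n = 3) was 1.16 times the WT mean of 3483 ± 603 CPM (SD, n = 4), and 1.07 times the WT mean of 3778 CPM that remains without WT replicate 1.

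**Figure D1:**
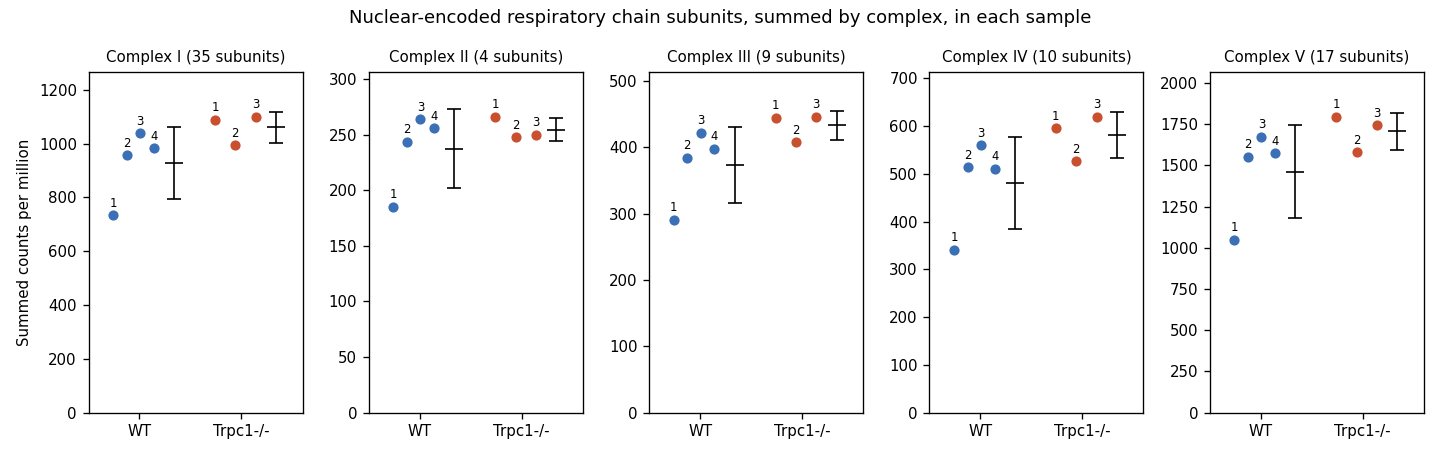
Summed CPM (vertical axis, from 0) of the ubiquitous subunits of complexes I to V in the 4 WT (blue) and 3 Trpc1-/- (orange) samples, numbered by replicate, with the mean and SD of each group in black. WT replicate 1 is the lowest point in each panel, and the remaining WT samples and the Trpc1-/- samples lie close together.

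The same picture held for each complex. For complex I the sums were 734, 956, 1038 and 984 CPM in WT and 1089, 995 and 1100 CPM in Trpc1-/- samples, and for complex II they were 185, 244, 264 and 256 CPM against 266, 248 and 250 CPM. For complex III they were 291, 384, 422 and 398 CPM against 445, 408 and 446 CPM, and for complex IV 341, 514, 560 and 511 CPM against 595, 527 and 620 CPM. Complex V, which includes the most abundant members, reached 1049, 1552, 1674 and 1574 CPM in WT and 1795, 1579 and 1745 CPM in Trpc1-/- samples. The groups overlapped in all 5 complexes, and the ratio of means went from 1.07 for complex II to 1.21 for complex IV, or from 1.00 to 1.10 for these complexes without WT replicate 1.

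With edgeR's quasi-likelihood test, 0 of the 82 members passed an adjusted p under 0.05, as did 0.0% of all genes tested. At an unadjusted p under 0.05, 8 members were higher in Trpc1-/- samples (4.51% of all genes were) and 1 was lower (5.49% of all genes were). DESeq2 called 1 member higher, Uqcrq, and 1 lower, Ndufa4l2, against 0.962% and 0.828% of all genes. The logFC was above 0 for 81 of the 82 members, against 48.1% of all genes, and its median over the members was 0.23, against -0.01 over all genes tested. Without WT replicate 1, 70 of 82 members had a logFC above 0 (49.7% of all genes), the median fell to 0.12 and 14 members were higher at an unadjusted p (8.53% of all genes). Scaled to the total count with no TMM factors, 77 of 82 were above 0 (36.6% of all genes), with a median of 0.16 (-0.07 over all genes), and 0 members were higher at an unadjusted p (1.18% of all genes). Leaving out WT replicates 2 to 4 in turn gave 3, 16 and 5 members higher at an unadjusted p, against 3.01%, 4.64% and 3.58% of all genes. Leaving out Trpc1-/- replicates 1 to 3 gave 2, 8 and 1, against 2.34%, 3.93% and 2.13% of all genes. The counts of 3, 2 and 1 were near these shares or below them. In each fit that left out a sample, between 70 and 81 members had a logFC above 0.

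Library names carry numbers that run in the 1300s for every Trpc1-/- library and for the first pair of WT replicates, and in the 1700s for the other pair of WT replicates. Within the 1300s, 33 members were higher at an unadjusted p (4.84% of all genes) with a median logFC of 0.36, and with the number series as a covariate 47 were (7.3% of all genes), with a median of 0.36. WT replicate 1 is 1 of the 2 WT samples that these values rest on. The logFC was above 0 for 78 of 82 members in both fits (49.0% and 48.9% of all genes). None of the 82 members passed an adjusted p under 0.05 in either fit.

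**Figure D2:**
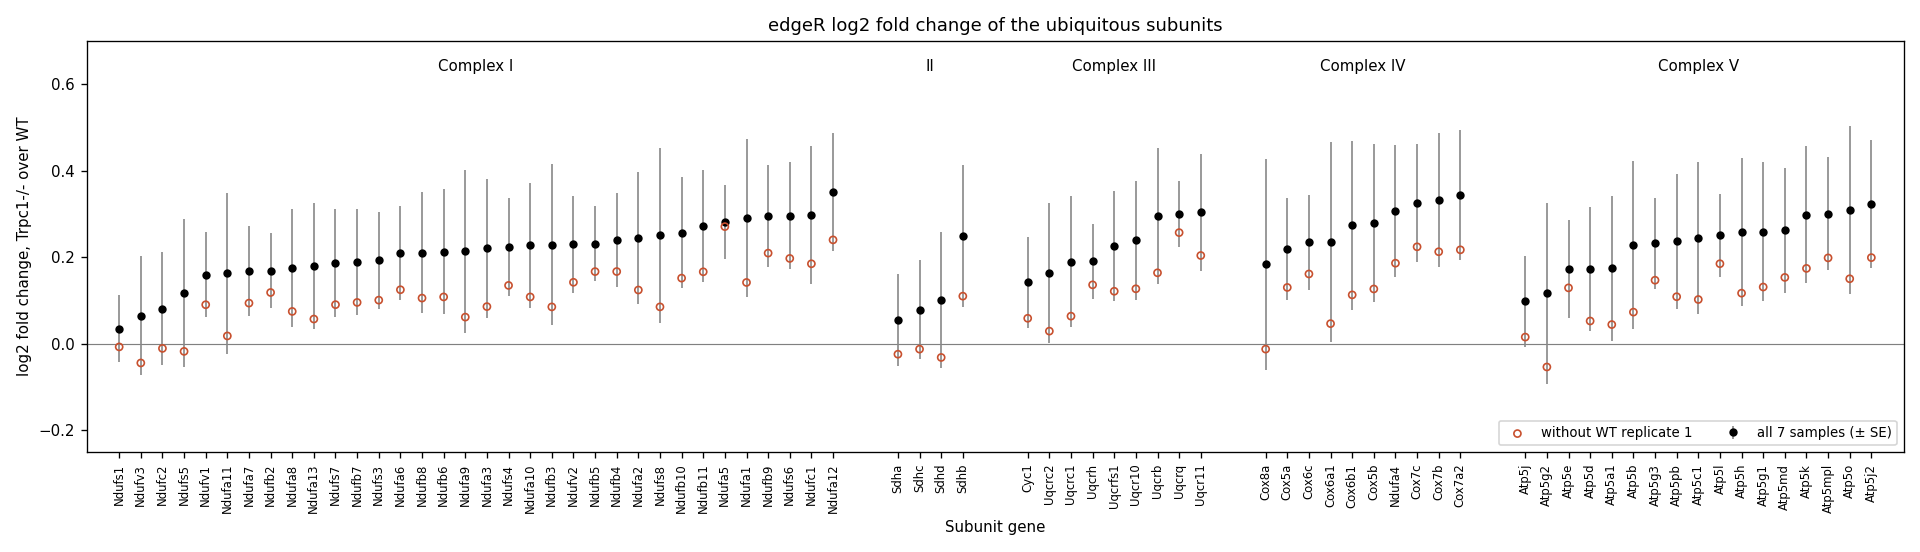
edgeR logFC (vertical axis, log2 of Trpc1-/- over WT) of 74 of the ubiquitous subunits, ordered within each complex, with bars of 1 SE for all 7 samples (black) and values without WT replicate 1 (open orange). All 74 black points are above 0, and 65 of the open points are.

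Transcript levels among the members spanned a wide range. Per kilobase of exon, the mean over the 7 samples went from 3.20 CPM for Ndufb2, a small accessory subunit of complex I, to 107 CPM for Atp5a1, the alpha subunit of the catalytic F1 head of ATP synthase, with a median of 20.8 CPM per kilobase over the ubiquitous subunits. Not corrected for length, Atp5b, the catalytic beta subunit, had the most counts, with 423 CPM. Within complex I Ndufa2 was highest per kilobase (46.1 CPM), in complex II Sdhd (43.9), in complex III the hinge protein Uqcrh (55.6) and in complex IV Cox8a (97.9), while Sdhc (9.92), Uqcrq (8.35), Cox5a (18.8) and, in complex V, Atp5g1 (8.05 CPM per kilobase) were lowest. Exon length here is that of all annotated exons of a gene merged, so a gene with long rarely used exons comes out low on this scale.

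Among the 35 subunits of complex I, all had a logFC above 0 (0.03 to 0.35, median 0.21). Of these, 5 were at an unadjusted p under 0.05 (4.51% of all genes were higher at this threshold). In 7 the groups did not overlap, higher in Trpc1-/- (7.15% of all genes). Without WT replicate 1 the median was 0.11 and 30 remained above 0. Ndufs1, the largest of the core subunits that carry iron-sulfur clusters, had 61.7, 68.8, 69.2 and 70.0 CPM in WT and 73.2, 66.1 and 68.0 CPM in Trpc1-/- samples, and its logFC of 0.03 ± 0.08 (SE) was the smallest in complex I, and -0.01 without WT replicate 1. The groups overlapped. The 28 accessory subunits, which make up most of the 35, had a median logFC of 0.22 (0.11 without WT replicate 1). The 7 core subunits had nearly the same, 0.19 (0.09 without WT replicate 1). The 5 with an unadjusted p under 0.05 were accessory subunits, and the difference between these parts was not tested.

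Ndufa5, an accessory subunit of the arm that protrudes into the matrix, had 11.5, 12.1, 11.9 and 11.3 CPM in WT and 14.0, 13 and 15.6 CPM in Trpc1-/- samples. The WT samples lay close together, and each Trpc1-/- sample was above them. The logFC was 0.28 ± 0.09 (SE), with an edgeR p of 0.011 before and 0.408 after adjustment. It was also the member that changed least on leaving out WT replicate 1, with a logFC of 0.27. Ndufb5, a membrane arm subunit, had 23.3, 27.3, 29.0 and 28.0 CPM in WT and 31.6, 30.7 and 32.5 CPM in Trpc1-/- samples, again without overlap (logFC 0.23 ± 0.09 SE, edgeR adjusted p = 0.461). The other accessory subunits at an unadjusted p under 0.05 were Ndufa12, Ndufb9 and Ndufs6, with logFC 0.35, 0.30 and 0.30 (0.24, 0.21 and 0.20 without WT replicate 1), and none of the 3 overlapped between the groups. Ndufs6, which is needed late in assembly, had 9.27, 12.3, 13 and 12.5 CPM in WT and 14.7, 13.7 and 15.1 CPM in Trpc1-/- samples.

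Complex II had the smallest differences. Sdha, the flavoprotein that oxidizes succinate, had 95.7, 117, 124 and 121 CPM in WT and 125, 118 and 115 CPM in Trpc1-/- samples, so that the Trpc1-/- samples lay among WT replicates 2 to 4. Its logFC was 0.05 ± 0.11 (SE), and -0.02 without WT replicate 1. Sdhb, the iron-sulfur subunit, had a logFC of 0.25 ± 0.16 (SE), and the membrane anchors Sdhc and Sdhd had 0.08 ± 0.11 and 0.10 ± 0.16 (SE). The groups overlapped for all 4 genes, and edgeR's adjusted p lay between 0.602 and 0.858. Without WT replicate 1 the median over complex II was -0.02, with Sdhb alone above 0, at 0.11.

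In complex III the smallest p belonged to Uqcrq (ENSMUSG00000044894, GRCm38 chr11:53427922-53430831, minus strand), which encodes the small ubiquinone-binding subunit. It had 12.7, 14.0, 14.8 and 14.1 CPM in WT and 16.7, 17.0 and 17.7 CPM in Trpc1-/- samples. Each Trpc1-/- sample was above each WT sample, with means of 13.9 ± 0.89 CPM (SD, n = 4) and 17.1 ± 0.48 CPM (SD, n = 3). The logFC was 0.30 ± 0.08 (SE), at an adjusted p of 0.395 with edgeR and 0.0272 with DESeq2, and 0.26 without WT replicate 1. On leaving out each sample in turn, DESeq2's call was kept only without WT replicate 1 (adjusted p = 0.0242) and lost in the other 6 cases (0.0715 to 0.532). Uqcrh had 57.7, 63.6, 70.1 and 68.2 CPM in WT and 72.9, 71.8 and 77.5 CPM in Trpc1-/- samples, without overlap (logFC 0.19 ± 0.09 SE, edgeR adjusted p = 0.508). Uqcr11 had the largest logFC of the complex, 0.30 ± 0.14 (SE, and 0.20 without WT replicate 1), and its groups overlapped. The core proteins Uqcrc1 and Uqcrc2 (0.19 and 0.16) and the catalytic Rieske protein Uqcrfs1 and cytochrome c1 (Cyc1), at 0.23 and 0.14, overlapped between the groups as well. Without WT replicate 1 these 4 genes had 0.06, 0.03, 0.12 and 0.06.

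Complex IV had the highest median logFC of the 5 complexes, 0.28 (0.15 without WT replicate 1), with all 10 ubiquitous subunits between 0.18 and 0.34. Cox7c, a small membrane subunit, had 29.6, 40.0, 41.7 and 39.5 CPM in WT and 47.2, 41.4 and 53.2 CPM in Trpc1-/- samples. Trpc1-/- replicate 2 lay just below WT replicate 3, so the groups overlapped, at a logFC of 0.33 ± 0.14 (SE) and an edgeR p of 0.046 before adjustment (adjusted p = 0.496). Cox7a2 (logFC 0.34 ± 0.15 SE) did not overlap between the groups, and Cox7b (0.33 ± 0.16 SE) did. Without WT replicate 1 Cox7c, Cox7a2 and Cox7b had 0.22, 0.22 and 0.21. Ndufa4 was long counted with complex I and is now placed in complex IV. It had 35.9, 49.9, 55.4 and 52.8 CPM in WT and 57.2, 55.8 and 67.1 CPM in Trpc1-/- samples, without overlap but with the lowest Trpc1-/- sample next to the highest WT sample (logFC 0.31 ± 0.15 SE, edgeR adjusted p = 0.528, and logFC 0.19 without WT replicate 1). Cox8a was the most abundant subunit of complex IV per kilobase. It had 32.4, 66.8, 71.1 and 58.7 CPM in WT and 69.2, 59.3 and 66.8 CPM in Trpc1-/- samples. Its logFC went from 0.18 to -0.01 without WT replicate 1. Cox7a2l, the supercomplex factor, behaved in the same way, with 0.11 and -0.01.

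All 17 subunits of complex V had a logFC above 0 (median 0.24, and 0.13 without WT replicate 1). The median was 0.17 for the F1 head (Atp5a1, Atp5b, Atp5c1, Atp5d and Atp5e) and 0.30 for the small membrane subunits (Atp5j2, Atp5k, Atp5l, Atp5md and Atp5mpl), or 0.07 and 0.18 without WT replicate 1. The lowest single values were those of Atp5j of the stalk, at 0.10, and Atp5g2 of the c ring, at 0.12. The difference between these groups of subunits was not tested. Atp5l, which encodes subunit g at the site where ATP synthase dimers meet, had 49.2, 57.3, 59.3 and 61.9 CPM in WT and 66.8, 63.4 and 72.9 CPM in Trpc1-/- samples. Each Trpc1-/- sample was above each WT sample. The logFC was 0.25 ± 0.10 (SE), with an edgeR p of 0.033 before and 0.474 after adjustment. Atp5mpl (logFC 0.30 ± 0.13 SE) and Atp5j2 (0.32 ± 0.15 SE) did not overlap either, and each had 0.20 without WT replicate 1. The rotating c ring is built from 1 protein made by 3 genes. Atp5g3 did not overlap between the groups (logFC 0.23 ± 0.10 SE), Atp5g1 overlapped at 0.26 ± 0.16 (SE), and Atp5g2 had 0.12 ± 0.21 (SE) and -0.05 without WT replicate 1. The same fit gave Atp5g1 and Atp5g3 0.13 and 0.15.

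The member that went the other way was Ndufa4l2 (ENSMUSG00000040280, chr10:127514967-127517154, plus strand), a paralog of Ndufa4 known as a target of hypoxia-inducible factor. It had 12.9, 16.8, 17.5 and 12.9 CPM in WT and 10.5, 10.4 and 9.85 CPM in Trpc1-/- samples. The 3 Trpc1-/- samples lay close together below all WT samples, with means of 15.0 ± 2.46 CPM (SD, n = 4) and 10.3 ± 0.37 CPM (SD, n = 3). The logFC was -0.55 ± 0.13 (SE), at an adjusted p of 0.395 with edgeR and 0.0288 with DESeq2, and 6.42% of all genes were lower without overlap. It was -0.62 without WT replicate 1, and between -0.62 and -0.47 on leaving out each sample in turn. DESeq2's call was kept without WT replicate 1 (adjusted p = 0.000463) and without WT replicate 4 (0.0109) and lost in the other 5 cases (0.104 to 0.438).

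A second pair of alternative subunits lies outside the naming rule and was examined beside this one. Cox4i1, the usual subunit 4 of complex IV, had 80.5, 107, 116 and 108 CPM in WT and 130, 108 and 133 CPM in Trpc1-/- samples (logFC 0.27 ± 0.14 SE, and 0.17 without WT replicate 1). Cox4i2, its counterpart that is known to be induced by low oxygen in some tissues, had 3.15, 4.02, 4.62 and 3.71 CPM in WT and 2.39, 3.25 and 2.35 CPM in Trpc1-/- samples. Both Cox4 genes overlapped between the groups. Cox4i2 had a logFC of -0.55 ± 0.19 (SE), with an edgeR p of 0.022 and an adjusted p of 0.450. The logFC of Cox4i2 was -0.63 without WT replicate 1, and between -0.72 and -0.45 on leaving out each sample in turn. Of the chondrocyte markers, 0 of 12 had a logFC above 0 (median -0.45) and 4 were lower at an unadjusted p (5.49% of all genes). What part this had in the values of Ndufa4l2 and Cox4i2 was not tested. In Trpc1-/- replicate 2 Ndufa4l2 had 10.4 CPM, below all WT samples, and Cox4i2 had 3.25 CPM, within the WT range. The chondrocyte markers summed to 6234 CPM in that sample, within the WT range, but 3258 CPM of this was Col2a1. Single markers there differed. Col2a1, Acan, Col11a2, Col9a1, Hapln1, Cnmd, Matn1 and Matn3 lay within the WT range. Comp (463 CPM) and Prg4 (384 CPM) lay below all WT samples, whose lowest values were 489 and 388 CPM.

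**Figure D3:**
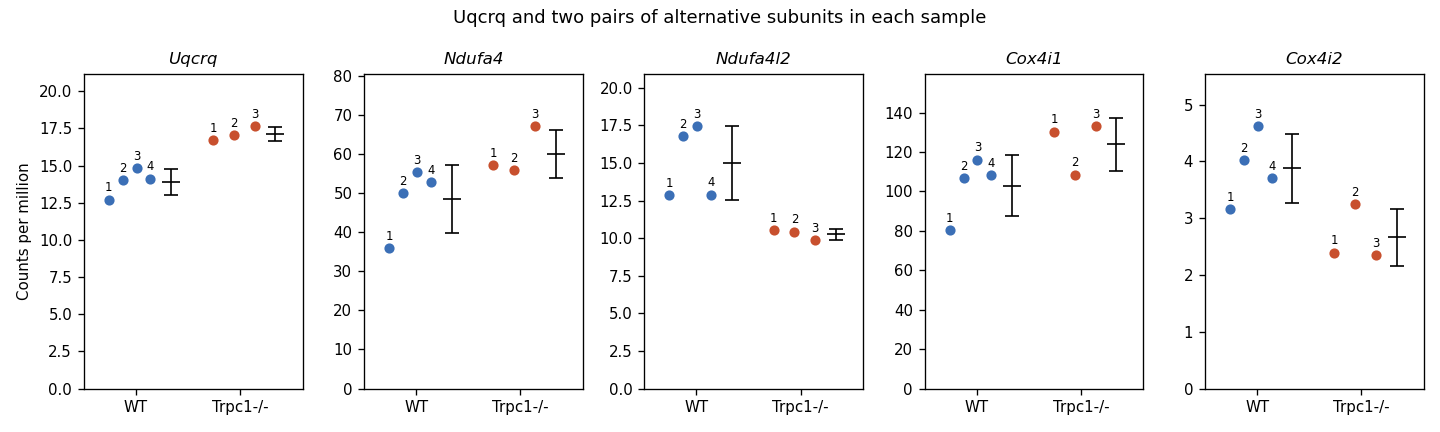
CPM (vertical axes, from 0) of Uqcrq and of Ndufa4, Ndufa4l2, Cox4i1 and Cox4i2 in the WT (blue) and Trpc1-/- (orange) samples, numbered by replicate, with mean and SD in black. For Uqcrq, Ndufa4 and Ndufa4l2 the groups do not overlap, Ndufa4l2 lies lower in Trpc1-/- samples at 9.85 to 10.5 CPM, and both Cox4 genes overlap.

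The muscle isoforms of complex IV were present at low level and their order among the samples was close to that of the skeletal muscle markers. Cox6a2 had 4.46, 2.04, 2.00 and 0.84 CPM in WT and 1.80, 2.36 and 4.09 CPM in Trpc1-/- samples. Cox7a1 had 3.57, 0.95, 0.86 and 0.13 CPM in WT and 0.70, 1.21 and 2.20 CPM in Trpc1-/- samples. Cox8b had 4.27, 1.26, 0.69 and 0.23 CPM in WT and 0.95, 1.79 and 2.59 CPM in Trpc1-/- samples. For all 3, WT replicate 1 was highest and WT replicate 4 lowest, as for the summed skeletal muscle markers, which were 1514, 286, 223 and 74.4 CPM in WT and 440, 745 and 1242 CPM in Trpc1-/- samples. The isoforms' share of the total with their ubiquitous partners (Cox6a1, Cox7a2 and Cox8a) was 12.2%, 11.1% and 11.6% in WT replicate 1 and at most 5.79% in any other sample. The log2 ratio of muscle to ubiquitous isoform differed between the groups by 0.08, 0.12 and 0.40, and exact two-sided permutation tests over the 35 arrangements gave p = 0.914, 0.83 and 0.80 (each 0.914 after Benjamini-Hochberg adjustment over the 3 pairs), where the smallest p possible is 0.0286. All 3 ratios changed sign without WT replicate 4 (-0.35, -0.62 and -0.22). The testis isoform Cox6b2 was found at 3.78 to 5.81 CPM in WT and 5.48 to 5.95 CPM in Trpc1-/- samples, whereas Cox7b2 and Cox8c had no count, which allows at most 0.0631 CPM in the least deeply sequenced sample.

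**Figure D4:**
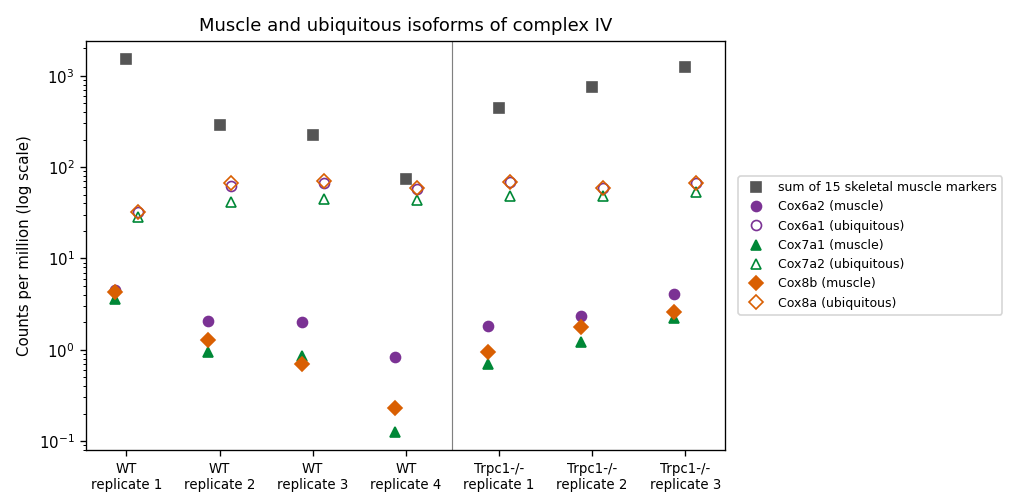
CPM on a log axis of the muscle isoforms Cox6a2, Cox7a1 and Cox8b (filled), their ubiquitous partners (open) and the sum of 15 skeletal muscle markers (grey squares) in each of the 7 samples. The muscle isoforms and the markers are highest in WT replicate 1 and lowest in WT replicate 4, and the ubiquitous partners are lowest in WT replicate 1.

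The spread of the ubiquitous subunits within WT came almost wholly from 1 sample. WT replicate 1 was the lowest of the 7 samples for 74 of the 75 (38.0% of all genes), at 68.8% of the mean of the other WT samples for the sum, and the SD of the WT sums went from 603 to 162 CPM without it. The highest sample was Trpc1-/- replicate 3 for 41 (11.3% of all genes), Trpc1-/- replicate 1 for 27 (18.7% of all genes) and WT replicate 3 for 7. The 13 subunits encoded by mitochondrial DNA were ordered otherwise. Their sum was 13182, 10147, 9262 and 8972 CPM in WT and 9454, 10881 and 11223 CPM in Trpc1-/- samples, and WT replicate 1 was the highest sample for 12 of the 13 genes. The log2 ratio of nuclear to mtDNA-encoded sums was therefore -2.34 in WT replicate 1, between -1.48 and -1.23 in the other WT samples, and between -1.53 and -1.17 in Trpc1-/- samples, which overlapped with WT. Of the 13 mtDNA-encoded genes, 6 had a logFC above 0, and 0 were at an adjusted p under 0.05 with edgeR or DESeq2 or at an unadjusted edgeR p under 0.05. Their median logFC was -0.03, and 0.16 without WT replicate 1.

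**Figure D5:**
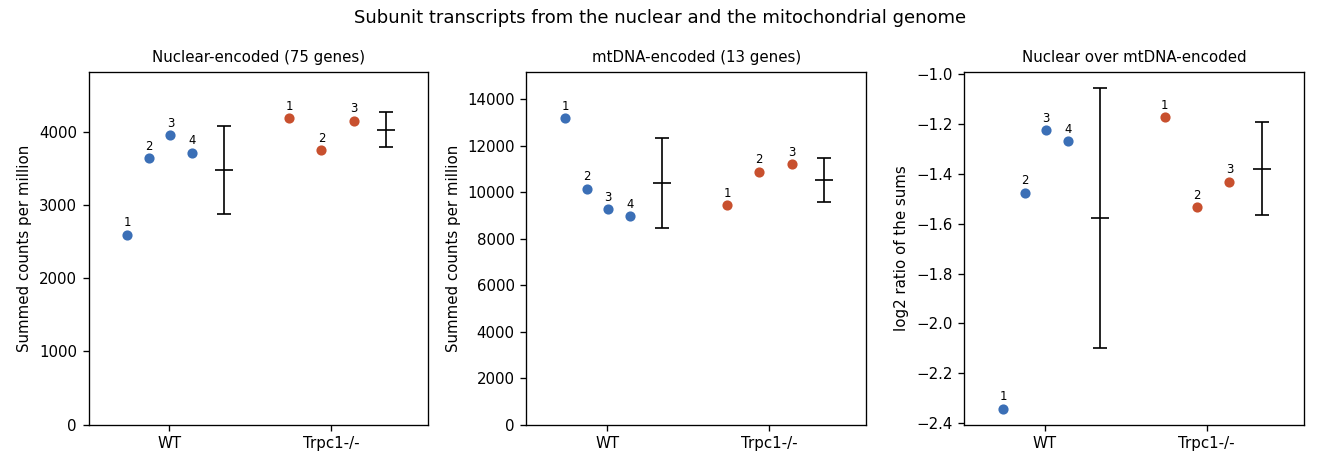
Summed CPM of the 75 ubiquitous nuclear-encoded subunits and of the 13 mtDNA-encoded subunits (both from 0), and the log2 ratio of these sums, in the WT (blue) and Trpc1-/- (orange) samples, numbered by replicate, with mean and SD in black. WT replicate 1 is lowest for the nuclear sum, highest for the mtDNA-encoded sum, and lowest for the ratio at -2.34.

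Other genes of the mitochondrion were set beside the subunits. edgeR called 0 genes in any of these lists, and DESeq2 called 0 as well. For the counts at an unadjusted edgeR p under 0.05 that follow, the shares of all genes were 4.51% higher and 5.49% lower. Among nuclear subunits and partners that the naming rule misses, Atpif1, the inhibitor of ATP hydrolysis by complex V (logFC 0.37 ± 0.12 SE), and Cycs, the somatic cytochrome c (0.34 ± 0.14 SE), were higher at an unadjusted p, Cox4i2 was lower, and Ndufab1, the acyl carrier protein of complex I, had 0.12 ± 0.08 (SE). All 15 assembly factors of complex I tested had a logFC above 0 (median 0.13, and 0.07 without WT replicate 1), with 0 at an unadjusted p under 0.05, and the smallest edgeR p was that of Ndufaf8 (0.28 ± 0.14 SE). Of 31 assembly factors of complexes II to V, 23 were above 0 (median 0.07, and 0.04 without WT replicate 1). At an unadjusted p 2 were higher, Cox16 (0.22 ± 0.08 SE) and Coa3 (0.29 ± 0.12 SE), a count near the share of all genes. Of 17 enzymes of the TCA cycle and pyruvate dehydrogenase, all were above 0 (median 0.09, and 0.02 without WT replicate 1) and 1 passed an unadjusted p, Idh3a, a subunit of the NAD-dependent isocitrate dehydrogenase (0.27 ± 0.07 SE, edgeR adjusted p = 0.404). The 15 regulators of mitochondrial biogenesis had a median of 0.01 (0.05 without WT replicate 1). Tfb1m, which methylates mitochondrial ribosomal RNA, was higher at an unadjusted p (0.41 ± 0.17 SE), Polrmt, the mitochondrial RNA polymerase, was lower (-0.20 ± 0.07 SE), and the factors Nrf1, Gabpa and Yy1, which are known to bind promoters of respiratory chain genes, had 0.01 ± 0.07, 0.08 ± 0.10 and 0.09 ± 0.06 (SE), or 0.05, -0.0031 and 0.07 without WT replicate 1.

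These factors' core motifs were looked up in the promoters of the members, from 250 bases before to 50 bases after the gene start, as RefSeq gives them on GRCm38.p6. 81 of the 87 member symbols were looked up, and 67 of these had an entry. GCATGCGC, a core of the NRF1 site, was found on either strand in 10 of them (14.9%, against 3.05% of 27025 promoters), AAGATGGC of YY1 in 10 (14.9%, against 3.19%), and CCGGAAGT of GABPA and other ETS factors in 5 (7.46%, against 4.31%), with 24 members holding at least 1. A match is a stretch of letters and not a measured site. Atp5l, Uqcr11 and Ndufs6 are shown because they are among the members with the smaller p-values in complexes V, III and I and each holds a match. Motifs are in capitals, and the strand is that of the gene.
Atp5l (chr9:44920693-44920992, minus strand): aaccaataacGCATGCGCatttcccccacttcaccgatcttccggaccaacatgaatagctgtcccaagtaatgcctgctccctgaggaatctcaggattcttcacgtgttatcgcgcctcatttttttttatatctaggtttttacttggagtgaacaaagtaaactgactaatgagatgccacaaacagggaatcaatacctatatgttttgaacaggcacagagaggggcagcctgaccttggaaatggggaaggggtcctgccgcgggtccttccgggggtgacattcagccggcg
Uqcr11 (chr10:80406772-80407071, minus strand): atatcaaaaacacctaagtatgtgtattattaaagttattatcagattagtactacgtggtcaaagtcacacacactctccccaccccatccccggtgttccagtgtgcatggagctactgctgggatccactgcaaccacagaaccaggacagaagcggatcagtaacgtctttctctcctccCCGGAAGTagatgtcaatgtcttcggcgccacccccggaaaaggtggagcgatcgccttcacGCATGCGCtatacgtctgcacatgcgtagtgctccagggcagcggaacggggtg
Ndufs6 (chr13:73328433-73328732, minus strand): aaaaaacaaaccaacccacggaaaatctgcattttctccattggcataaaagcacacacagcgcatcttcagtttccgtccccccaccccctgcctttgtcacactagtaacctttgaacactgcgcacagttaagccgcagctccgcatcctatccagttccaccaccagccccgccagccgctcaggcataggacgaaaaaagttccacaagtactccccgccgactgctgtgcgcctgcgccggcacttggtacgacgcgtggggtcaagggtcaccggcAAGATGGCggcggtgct
The match in Atp5l is to NRF1, those in Uqcr11 are to GABPA and then NRF1, and that in Ndufs6 is to YY1. Uqcr11 is the member with matches to more than 1 of the motifs.

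Marker genes of other cells and the length and position of the members were also looked at, and only some of these moved with the members. Of 15 erythroid markers, all had a logFC above 0 (median 0.42, and 0.33 without WT replicate 1), and the ranges of their sum did not overlap between the groups. At an unadjusted p 12 were higher (4.51% of all genes), and DESeq2 called 4 higher (0.962% of all genes). Of 10 neutrophil lineage markers, all were above 0 (median 0.16, and -0.09 without WT replicate 1), and their sum was lowest in WT replicate 1, as that of the subunits was. Of 13 skeletal muscle markers tested, all were above 0 (median 0.61, and 2.08 without WT replicate 1), the highest median of the lists, with 0 at an unadjusted p under 0.05. Their sum was highest in WT replicate 1, where the sum of the subunits was lowest. Of 5 fat markers tested, 3 were higher at an unadjusted p (4.51% of all genes), with a median of 0.57, and DESeq2 called 1 higher (0.962% of all genes). Ucp1, which defines brown fat, had 0 counts. Of 8 osteoclast markers, 3 were above 0 (median -0.10, and -0.24 without WT replicate 1), and of 10 osteoblast and osteocyte markers 0 were (median -0.36). Of these 10, 2 were lower at an unadjusted p (5.49% of all genes), and DESeq2 called 1 lower (0.828% of all genes). The part of these cells in the values of the respiratory chain genes was not tested. Members were also short, with a median merged exon length of 1756 bases against 3924 for all genes. Lengths were put in classes up to 1000, 2000 and 4000 bases and above. Over all genes tested the median logFC in these classes was 0.14, 0.07, 0.003 and -0.04. For the ubiquitous subunits it was 0.24, 0.25, 0.21 and 0.21. Without WT replicate 1 these medians were 0.09, 0.02, -0.007 and -0.01 over all genes and 0.12, 0.13, 0.10 and 0.10 for the subunits. The part of length in the values of the members was not tested. 5 tested members lie on chromosome 9 with Trpc1, the nearest of them 13.2 Mb away.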

How the data were processed

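Knee tissue was profiled by bulk RNA-Seq in 4 WT and 3 Trpc1-/- samples. The authors trimmed reads with cutadapt 2.5, aligned them to GRCm38 with HISAT2 2.1.0, estimated the abundance of reference transcripts with StringTie 2.0.3, and deposited estimated counts per gene, which were whole numbers and not normalized. Counts derived from coverage inherit how reads shared by near-identical copies were assigned, so members with processed copies (Cox7c, Atp5l, Uqcrh, Ndufs5 and others) are less certain. All 7 columns of sample values were used and 0 were left unmapped, and no row lacked a gene name.

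The 16429 genes above 1 CPM in 2 or more samples were scaled with TMM factors and entered edgeR 4.0.16 (R 4.3.3), whose quasi-likelihood F test compared the genotypes without covariates. P-values were adjusted over all of them by the Benjamini-Hochberg method. The common dispersion was 0.0424. CPM values use TMM-scaled library sizes. DESeq2 1.42.0, other scalings and filters, a replicate block, the library-name series and leaving out each sample were tried as alternatives. The fits were first tested on simulated counts. Exon lengths and positions came from GENCODE M21. Ratios used a pseudocount of 0.1 CPM.

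Members, lists and tests were chosen with earlier results of these data known. Named genes were the muscle and testis isoforms with their partners, members called by edgeR or DESeq2, the highest and lowest member per kilobase and the 3 smallest p-values of each complex, the Sdh and Atp5g genes, and the called or smallest-p genes of the other lists. Values of further members (Ndufs1, Ndufa12, Ndufb9, Ndufs6, Uqcrc1, Uqcrc2, Uqcrfs1, Cyc1, Atp5b and Atp5j2), of Nrf1, Gabpa and Yy1, and of rows with -ps names were added after they were seen. Marker lists, given in full as counts, were written by hand for chondrocytes, osteoblasts and osteocytes, osteoclasts, skeletal muscle, erythroid cells, the neutrophil lineage and fat. The values of 1 complex I member are not reported here individually.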

Additional observations from a re-analysis of the deposited data

Results flagged for a closer look

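In 5 of 105 groups of the 4 WT samples checked, 1 sample lay far from the rest, with a gap to its nearest neighbour above the 95% critical value of Dixon's test on the whole range. Chance alone gives such a gap in about 1 of 20 groups. The sample was WT replicate 1 in all 5. Cox6c, a small membrane subunit of complex IV, had 55.2 CPM there and 67.4 to 69.7 CPM in the other WT samples (gap 0.840 of the range). For Ndufa9, an accessory subunit of complex I, these values were 16.9 and 27.3 to 29.3 CPM (0.834), and for Ndufs1, a core subunit of complex I, 61.7 and 68.8 to 70.0 CPM (0.858). The enzymes of the TCA cycle summed to 889 CPM in WT replicate 1 and to 1036 to 1066 CPM in the others (0.832). The skeletal muscle markers went the other way, at 1514 CPM against 74.4 to 286 CPM (0.853).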

How the results depend on the processing

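The logFC was above 0 for 70 to 81 of the 82 members in every fit, and edgeR called 0 members in all of them, whereas DESeq2 called 2. The count of members higher at an unadjusted p was 8 in the edgeR fit reported (4.51% of all genes), 15 with DESeq2 (5.92%), 0 with total library size and no TMM factors (1.18%), 4 with no filter on low counts (2.63%), 47 with the library-name series as a covariate (7.3%) and 33 in the 1300s alone (4.84%), and 1 to 16 when a sample was left out (2.13% to 8.53%). DESeq2's calls, an alternative chosen after seeing the data when run with a sample left out, ranged from 0 to 2. The cause of these shifts was not tested. Fits that left out a sample also had fewer samples.

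Direction changed for small values. On leaving out each sample, the logFC ranged from -0.054 to 0.23 for Atp5g2, -0.012 to 0.19 for Cox7a2l, -0.012 to 0.30 for Cox8a, -0.024 to 0.096 for Sdha, -0.012 to 0.12 for Sdhc and -0.032 to 0.18 for Sdhd, with the lowest value of each without WT replicate 1. Sdha was at -0.0076 with no TMM factors. The muscle isoforms ranged from -0.15 to 0.74 (Cox6a2), -0.50 to 1.05 (Cox7a1) and -0.21 to 1.26 (Cox8b). With the series as a covariate they were at -0.23, -0.70 and -0.62, and in the 1300s alone also at -0.23, -0.70 and -0.62. Their log2 ratios to the ubiquitous partners ranged from -0.35 to 0.69, -0.62 to 0.92 and -0.22 to 1.31 when a sample was left out, were -0.74, -1.09 and -0.96 in the 1300s alone, and for Cox7a1 to Cox7a2 was -0.12 with a pseudocount of 0.5 CPM.

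Replicate numbers are shared by the groups, but same-numbered samples did not deviate together (correlations -0.35, -0.20 and -0.04). The numbers were therefore not used as pairs in the main fit, although so few samples cannot exclude a pairing. A replicate block leaves out WT replicate 4, which has no partner. With it, 7 members were higher at an unadjusted p (1.78% of all genes) and 1 lower (4.18% of all genes), with a median logFC of 0.27. Cox6a2 and Cox7a1 had -0.0053 and -0.15 with the block. The within-pair differences of the 3 log2 ratios averaged -0.35, -0.62 and -0.22. These averages equal by construction the differences without WT replicate 4 and are not a separate result.

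Of the values recomputed, 832 kept their direction and side of the threshold. A further 37 were recorded as reversed, 43 as moved and 2 as stronger. Cox7a1 and Cox8b fell to 10 to 18 counts in WT replicate 4, which limits the precision of their ratios there.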

Other observations

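Ndufb1-ps, whose name was left out with the pseudogenes, is annotated as a lncRNA that shares a promoter with a neighbour, and was as abundant as many subunits of complex I. It had 24.4, 34.2, 36.9 and 38.6 CPM in WT and 45.2, 36.5 and 46.6 CPM in Trpc1-/- samples. WT replicate 1 was again the lowest and the groups overlapped (logFC 0.35 ± 0.16 SE, edgeR adjusted p = 0.515). Of the 12 other rows with -ps names, Cox7c-ps1, a transcribed copy of Cox7c, had 1.09, 1.71, 1.32 and 1.54 CPM in WT and 1.91, 1.90 and 2.13 CPM in Trpc1-/- samples, without overlap (logFC 0.48 ± 0.19 SE, edgeR adjusted p = 0.482). Reads from such copies and from their parent genes may have been exchanged in the counting, and this was not tested.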
